A study of Danio rerio with 18 samples.

Results

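The transcripts described here belong to the proteasome and to ubiquitin conjugation, read from 56 of the 15502 non-control probe sets of an Affymetrix zebrafish array. A probe set, the group of array probes that reports 1 transcript, was a member if its deposited description named the proteasome or a ubiquitin-conjugating enzyme. The choice also names ube2d3, whose description meets the same wording. The descriptions placed 38 members in the proteasome and 14 among ubiquitin-conjugating enzymes. The other 4 matched only because their descriptions name a protein, Ariadne-1, that binds such an enzyme, so they stand for a ubiquitin ligase and not for an enzyme of the named class. A zebrafish gene of the RefSeq table was found for 25 members, and psmb9b was named by its description. The rest are known only by similarity to a human protein and are written here as, for example, PSMD2-like.

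The study asked how knockdown of cardiac troponin T2 (tnnt2) alters gene expression in zebrafish embryos. Embryos of the AB strain were injected at the 1-cell stage. Morphants received an antisense morpholino against tnnt2, and RNA was taken at 36, 48 and 60 hours after fertilisation. The controls of the same times are called wildtype in the sample titles, while the treatment text names a control morpholino. The sources therefore do not settle whether the controls were injected. A protocol line gives an earlier first time than the titles. A morpholino acts for a limited time on translation or splicing, and RNA came from whole embryos in which the heart is a small part. Each of the 6 groups had 3 arrays of total RNA from groups of embryos, which by the treatment text drew evenly on the parent pairs. The labels do not say that these came from separate clutches, so p-values measure the spread between these arrays.

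The proteasome is a protease built from a barrel-shaped core, with alpha rings that gate it and beta rings that cut, and a regulatory cap that recognises ubiquitin-tagged proteins, unfolds them with ATPases and feeds them in. Tags are attached through a relay of activating (E1), conjugating (E2) and ligating (E3) enzymes, and E2 enzymes also pass on the related proteins SUMO and NEDD8. In muscle, including the heart, this system clears damaged and surplus sarcomere proteins. Where roles are given below for a "-like" probe set they are those of the human protein.

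Values are on a log2 scale after quantile normalisation between arrays. Medians of the deposited arrays ran between 1.19 and 3.86, and controls replicate 2 at 60 hours (1.19) and replicate 1 at 36 hours (1.48) were the lowest. Among members, 46 passed a filter on dim probe sets (a mean of at least 0.62) and 10 did not. Tests are from limma across all 11626 probe sets that passed, with Benjamini-Hochberg adjustment and a threshold of 0.05, and a difference is morphants minus controls. The targeted gene tnnt2a differed by -0.02, -0.02 and -0.31 at the 3 times (limma adjusted p of 0.992, 0.999 and 0.744), so its RNA level does not check the labels. The heart marker myl7 was measured at 4.40 to 5.52. In whole-embryo RNA, fewer cells of a type and less RNA per cell cannot be told apart.

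In the main fit, with arrays unpaired, the E2 enzyme ube2d3 was the 1 member called higher in morphants, at 36 hours and on average. It belongs to the UBE2D family, which serves many different ubiquitin ligases, and its name was found through its clone, while the array's own description calls it similar to E2D 2. At 36 hours ube2d3 had 7.02, 7.03 and 6.93 in morphants, against 6.21, 6.46 and 6.39 in controls. The 48-hour values were 6.54, 6.64 and 6.87 in morphants, against 6.33, 6.35 and 6.29 in controls. The 60-hour values were 7.12, 7.14 and 7.30 in morphants, against 6.80, 6.83 and 6.66 in controls. Every morphant array lay above every control array of its own time, so the groups did not overlap at any time.

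**Figure D1:**
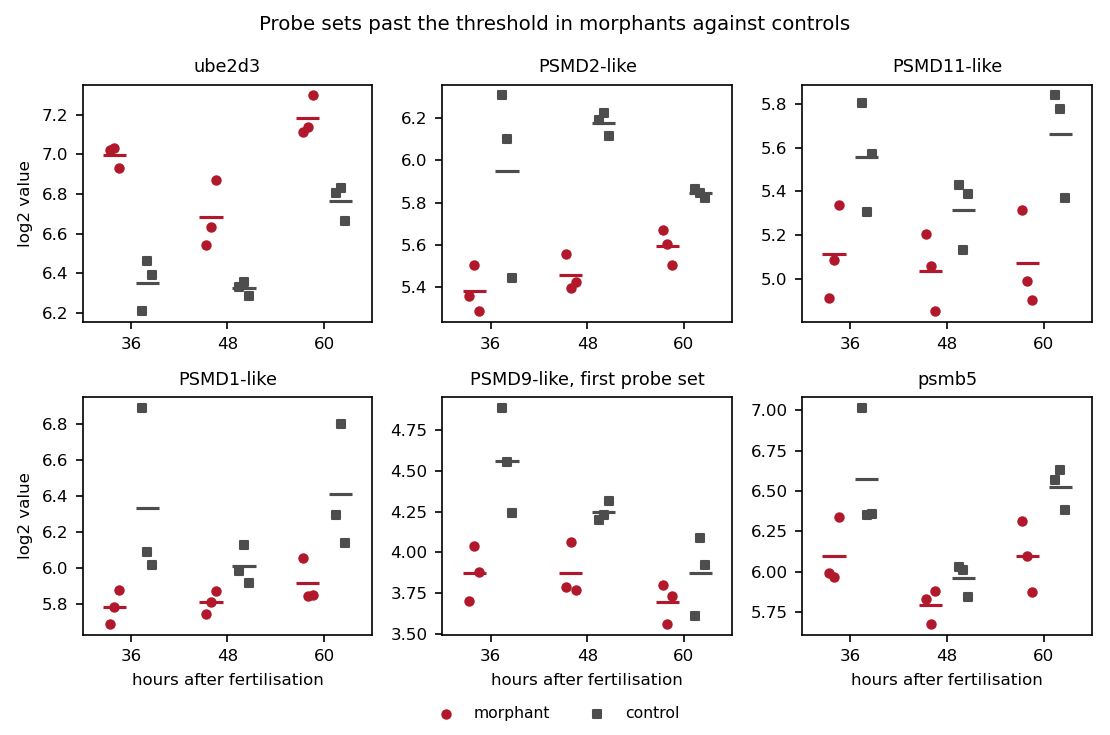
Log2 values of the 6 members past the threshold in morphants against controls, by hours after fertilisation. Each point is 1 array (circles for morphants, squares for controls), short lines are group means, and the y axes differ between panels. The morphant points of ube2d3 lie above the controls at each time, and those of PSMD1-like lie below.

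At 36 hours ube2d3 rose by 0.64 (SE 0.11, 1.56-fold, limma adjusted p = 0.0165) and was the only one of the 46 members tested to pass, where 0.181% of all probe sets did. This call was lost when the replicate number was fitted as a block (adjusted p = 0.0516). It was also lost without morphant replicate 1 (0.0723) or replicate 2 (0.0842) of that time. With arrays centred on their medians the difference was 0.28 (limma adjusted p = 0.500).

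At 48 hours ube2d3 differed by 0.36 (SE 0.11, limma adjusted p = 0.178), and at 60 hours by 0.42 (limma adjusted p = 0.0809). The 48-hour difference was -0.09 on the values as deposited, where the median of all probe sets was itself at -0.57. Averaged over the 3 times, ube2d3 rose by 0.47 (SE 0.063, 1.39-fold), with means of 6.95 in morphants and 6.48 in controls (9 arrays each). The limma adjusted p was 0.000322, and the call held without each of the 18 arrays in turn, at an adjusted p of at most 0.00125. It did not hold on values as deposited (0.36, limma adjusted p = 0.770) or with median centring (0.32, limma adjusted p = 0.150). The limma test of a difference between the 3 times gave an adjusted p of 0.773 for ube2d3.

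The averaged comparison used all 9 morphant and 9 control arrays and called 6 members, 1 higher and 5 lower, where 4.81% of all probe sets passed (2.46% higher and 2.35% lower). The 5 that fell were all proteasome probe sets, as were 31 of the 46 members tested. Of the 5, 4 stand for the regulatory cap or its assembly. Those roles were held by 3 ATPase, 11 non-ATPase and 4 assembly chaperone probe sets of the 31. The 11 non-ATPase ones had a median of -0.03, with 5 above 0, and a difference between roles was not tested. The lower calls were PSMD2-like, PSMD11-like, PSMD1-like, the first PSMD9-like probe set and psmb5. Each fell by between 0.36 and 0.51 on the log2 scale. With array quality weights 12 members passed, 3 higher and 9 lower (26.1%, where 23.6% of all probe sets did). With values as deposited or centred on medians 0 members passed. No share of all probe sets is given for those scalings or for single arrays left out, so these counts are not read as results about members. The count was 10 without control replicate 3 of 36 hours, with psmb12 among them, whose mean passed the filter through the controls. It was 2 or 3 without morphant replicate 1 or 2 of 36 hours, any 1 control or morphant replicate 1 or 3 of 48 hours, control replicate 1 or 2 of 60 hours, or morphant replicate 2 or 3 of 60 hours.

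PSMD2-like had the largest called decrease. PSMD2 (Rpn1 in yeast) is a scaffold of the cap that docks shuttle proteins carrying tagged substrates. At 36 hours it had 5.36, 5.51 and 5.29 in morphants, against 6.31, 6.10 and 5.44 in controls, so the third control lay among the morphants. At 48 hours it had 5.56, 5.40 and 5.42 in morphants, against 6.19, 6.22 and 6.12 in controls, and at 60 hours 5.67, 5.61 and 5.50 in morphants, against 5.86, 5.85 and 5.82 in controls. At both later times every morphant array lay below every control array.

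Averaged over times PSMD2-like fell by 0.51 (SE 0.095, 1.43-fold, limma adjusted p = 0.00561), with means of 5.48 in morphants and 5.99 in controls. The call held without each of the 18 arrays in turn, at an adjusted p of at most 0.0171. It did not hold on values as deposited or with median centring (limma adjusted p of up to 0.593). At 48 hours alone its difference was -0.72 (SE 0.16, limma adjusted p = 0.0531). With the replicate number as a block that difference passed (limma adjusted p = 0.0441). At 36 hours PSMD2-like passed only without control replicate 3, with a difference of -0.82 (limma adjusted p = 0.00537).

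PSMD11-like stands for a lid subunit (Rpn6 in yeast) that clamps the cap onto the core. At 36 hours it had 4.92, 5.09 and 5.34 in morphants, against 5.80, 5.30 and 5.57 in controls. Its values at 48 hours were 5.20, 5.06 and 4.85 in morphants, against 5.43, 5.13 and 5.39 in controls. Its values at 60 hours were 5.32, 4.99 and 4.91 in morphants, against 5.84, 5.78 and 5.37 in controls. The groups overlapped at 36 and 48 hours and were apart at 60 hours. On average PSMD11-like fell by 0.44 (SE 0.10, 1.35-fold, limma adjusted p = 0.0217). The call was lost without control replicate 1 or morphant replicate 3 of 48 hours, or without control replicate 1 or 2 or morphant replicate 2 or 3 of 60 hours (adjusted p of 0.0505 to 0.0546). The probe set named psmd11b, for the same human protein, differed by 0.09 on average (limma adjusted p = 0.753) and was not called.

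PSMD1-like stands for the other large scaffold of the cap (Rpn2 in yeast). At 36 hours it had 5.69, 5.79 and 5.88 in morphants, against 6.89, 6.09 and 6.02 in controls. At 48 hours it had 5.75, 5.81 and 5.88 in morphants, against 5.98, 6.13 and 5.92 in controls. At 60 hours it had 6.06, 5.85 and 5.85 in morphants, against 6.29, 6.80 and 6.14 in controls. All morphant arrays lay below all control arrays at each of the 3 times, and the highest controls, 6.89 and 6.80, were the 2 arrays with the lowest deposited medians.

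PSMD1-like fell by 0.41 on average (SE 0.11, 1.33-fold, limma adjusted p = 0.0407). Without those 2 arrays, an alternative chosen after seeing the data, it was -0.25 (limma adjusted p = 0.0381). The call held without any 1 of the 3 control arrays of 36 hours, control replicate 3 or morphant replicate 1 of 60 hours, and was lost without any other single array (adjusted p of up to 0.0859) and with no intensity trend (limma adjusted p = 0.0774). The probe set named psmd1 followed the same pattern across the 18 arrays (Pearson r = 0.94, Spearman rho = 0.81, given as a description) and differed by -0.37 (limma adjusted p = 0.0723).

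The first of 2 PSMD9-like probe sets, whose description gives only weak similarity to PSMD9, an assembly chaperone of the ATPase ring, passed as well. At 36 hours it had 3.70, 4.04 and 3.88 in morphants, against 4.89, 4.55 and 4.24 in controls. The 48-hour values were 3.79, 4.06 and 3.77 in morphants, against 4.20, 4.23 and 4.32 in controls. The 60-hour values were 3.80, 3.56 and 3.73 in morphants, against 3.61, 4.09 and 3.92 in controls. The groups were apart at 36 and 48 hours and overlapped at 60 hours. It fell by 0.41 on average (SE 0.11, 1.33-fold, limma adjusted p = 0.0392), and the second PSMD9-like probe set differed by -0.23 (limma adjusted p = 0.222). The call of the first held without control replicate 2 or 3 of 36 hours, morphant replicate 2 of 48 hours, control replicate 1 or 3 of 60 hours, or morphant replicate 1 of 60 hours. It was lost without any other single array (adjusted p of up to 0.0877), without the 2 arrays of lowest deposited median (-0.31, limma adjusted p = 0.0891) and with the replicate number as a block (limma adjusted p = 0.0501).

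In the core, psmb5 encodes the subunit with the chymotrypsin-like cutting site. At 36 hours it had 5.99, 5.97 and 6.34 in morphants, against 7.02, 6.35 and 6.36 in controls. Its values at 48 hours were 5.83, 5.68 and 5.88 in morphants, against 6.03, 6.01 and 5.84 in controls. Its values at 60 hours were 6.31, 6.10 and 5.88 in morphants, against 6.57, 6.63 and 6.38 in controls. The groups were narrowly apart at 36 hours, overlapped at 48 hours and were apart at 60 hours. It fell by 0.36 on average (SE 0.098, 1.28-fold, limma adjusted p = 0.0436). The call held without any 1 of the 3 control arrays of 36 hours, morphant replicate 3 of 36 hours, control replicate 3 or morphant replicate 1 of 60 hours. It was lost without any other single array (adjusted p of up to 0.0963), without the 2 arrays of lowest deposited median (-0.26, limma adjusted p = 0.0717) and with no intensity trend (limma adjusted p = 0.0797).

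The other subunits with a cutting site gave smaller differences that did not pass, -0.13 (SE 0.087) for psmb6, the caspase-like subunit, and -0.17 (SE 0.080) for psmb7, the trypsin-like one. The 4 alpha-ring probe sets tested, psma4, psma6a, PSMA1-like and PSMA2-like, differed by between -0.13 and 0.01 on average. The 3 ATPase probe sets of the cap, psmc1a, PSMC1-like and PSMC3-like, differed by between -0.14 and -0.07. None of these 9 passed. Of the 11 cap probe sets that are not ATPases, 3 fell, and the rest ran between -0.37 and 0.10. The remaining assembly chaperones, PSMD5-like and PSMD10-like, differed by -0.27 and -0.23, without passing.

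**Figure D2:**
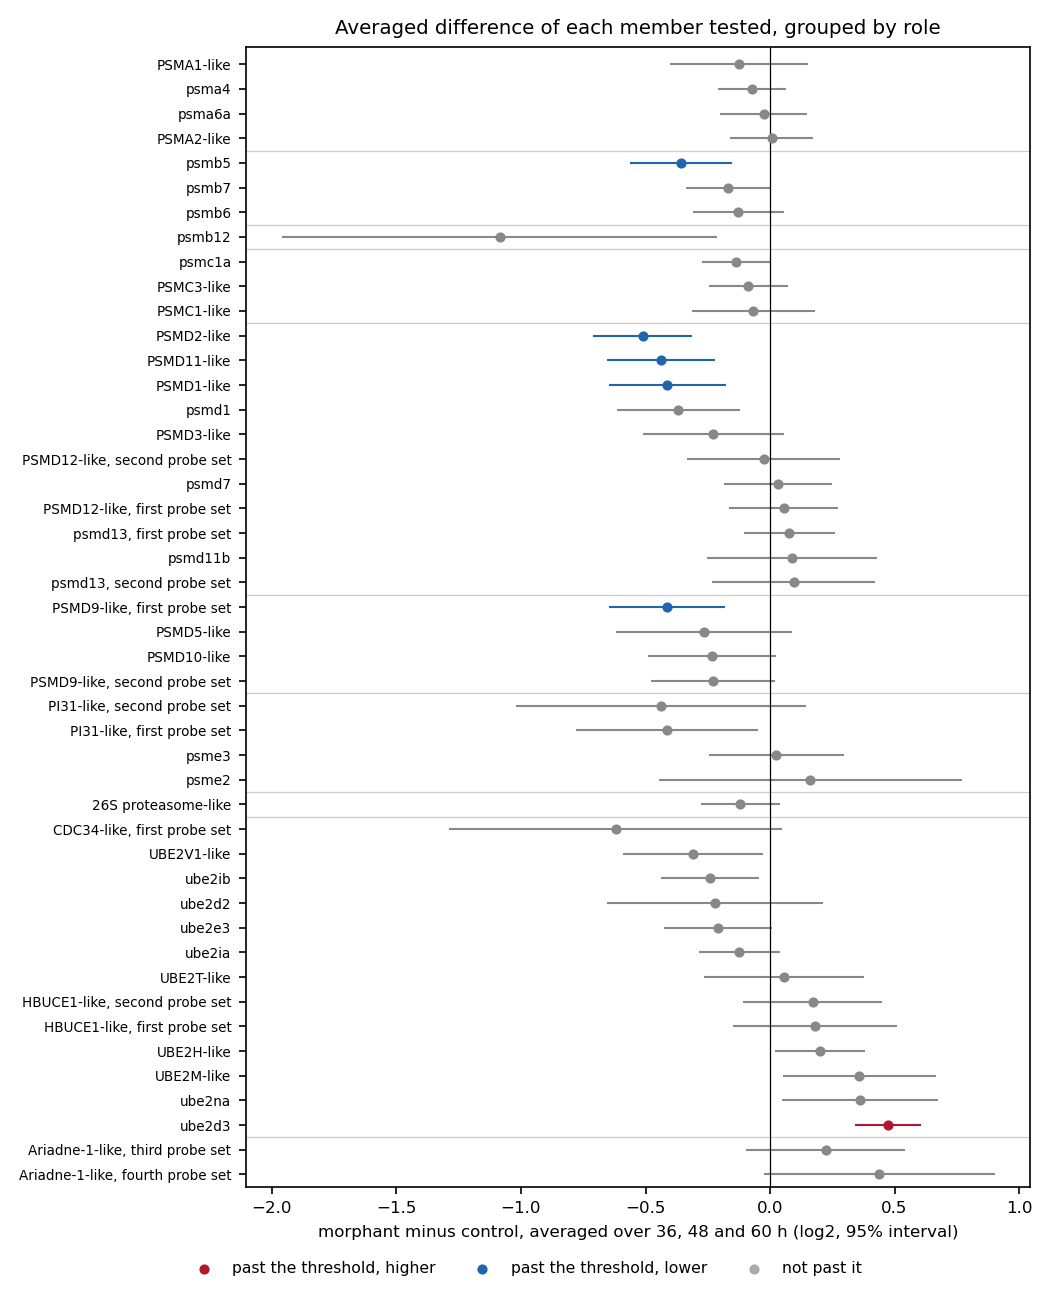
Difference of morphants minus controls on the log2 scale, averaged over the 3 times, for the 46 members tested, grouped by role from the core (top) to the ligase probe sets (bottom). Points are limma estimates and lines their 95% intervals, and colour marks the members past the threshold. The 5 lower calls are proteasome probe sets at -0.36 to -0.51, and ube2d3 is the only higher call, at 0.47. Of the 46 points 17 lie above 0, among them the 2 Ariadne-1-like probe sets at 0.22 and 0.44, which did not pass.

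At single times no other member was called in the main fit. With the replicate number as a block PSMD2-like passed at 48 hours (limma adjusted p = 0.0441), and ube2d3 did not pass at 36 hours. At 48 hours limma called 0 of 46 members, where 0.568% of all probe sets passed (0.37% higher and 0.198% lower), and 3 members had an unadjusted p under 0.05 (6.52%, against 10.3% of all probe sets). At 60 hours limma called 0 of 46, where 0.92% of all probe sets passed (0.68% higher and 0.241% lower), and 13 members had an unadjusted p under 0.05 (28.3%, against 17.8% of all probe sets). At 36 hours the number with an unadjusted p under 0.05 was 9 (19.6%, against 13.2% of all probe sets). The test of a difference between times called 0 members, where 0.0258% of all probe sets passed. In that test 2 members had an unadjusted p under 0.05 (4.35%, against 7.73% of all probe sets). The unadjusted counts at 36 hours, at 60 hours and in that test include psmb12, whose mean passed the filter through the controls. Without control replicate 3 of 60 hours, UBE2M-like (1.23) and PSMD11-like (-0.74) passed at 60 hours (limma adjusted p of 0.00694 and 0.0397). Without control replicate 3 of 36 hours, the first PSMD9-like probe set (-0.85, limma adjusted p = 0.0364) passed at 36 hours beside PSMD2-like and ube2d3.

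Most members lay slightly below 0. At 36 hours 29 of 46 differences were negative (63.0%), at 48 hours 31 (67.4%) and at 60 hours 32 (69.6%). Of all probe sets tested 49.4%, 48.2% and 50.3% were negative. Member medians were -0.09, -0.06 and -0.17 at the 3 times, beside 0.01, 0.01 and -0.00 for all probe sets tested. Of the members, 20 of 46 (43.5%) were negative at all 3 times, against 20.4% of all probe sets tested. Positive at all 3 were 3 members (6.52%), against 21.9% of all. These shares are descriptions, since members share arrays and no test was made over the list.

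The same share was 43.5% without the 2 arrays of lowest deposited median, against 19.4% of all probe sets tested. Relative to the median of all probe sets, the member median was negative at each time, between -0.31 and -0.04, with quantile normalisation and on values as deposited. Median centring moves each array by a constant, so it leaves this measure as on values as deposited and adds no separate check. On values as deposited 24 of 46 members lay below the median of all probe sets at 48 hours. The sign of the member median against 0 did depend on the scaling: it was 0.08 at 48 hours with median centring and 0.08 at 60 hours on values as deposited. On the single arrays, the median shift of members from their own means was highest in control replicate 1 of 36 hours, at 0.37, the array with the second lowest deposited median. Its part in the comparisons at 36 hours was not tested beyond the values without it.

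Proteasome members and E2 members are given side by side, and the difference between them was not tested. At 60 hours 25 of 31 proteasome differences were negative, with a median of -0.22, whereas 7 of 13 E2 differences were, with a median of -0.03. At 36 hours the medians were -0.14 for proteasome members and -0.05 for E2 members, and at 48 hours -0.16 and -0.00. Groups that did not overlap were counted too. At 60 hours 11 proteasome members had all morphant arrays below all controls and 0 had them above. Across all members that made 11 lower and 3 higher, or 23.9% and 6.52% of 46. Of all probe sets 11.3% and 8.89% did so, and the excess was not tested. These 11 include psmb12, whose mean passed the filter through the controls, with a 60-hour morphant mean of -0.40. At 48 hours 11 members were wholly lower (23.9%) and 5 wholly higher (10.9%), where the background was 11.8% and 13.1%. The excess of lower ones was not tested. At 36 hours 3 were wholly lower (6.52%) and 2 wholly higher (4.35%). The background was 6.93% each way, so members were not above it at 36 hours.

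**Figure D3:**
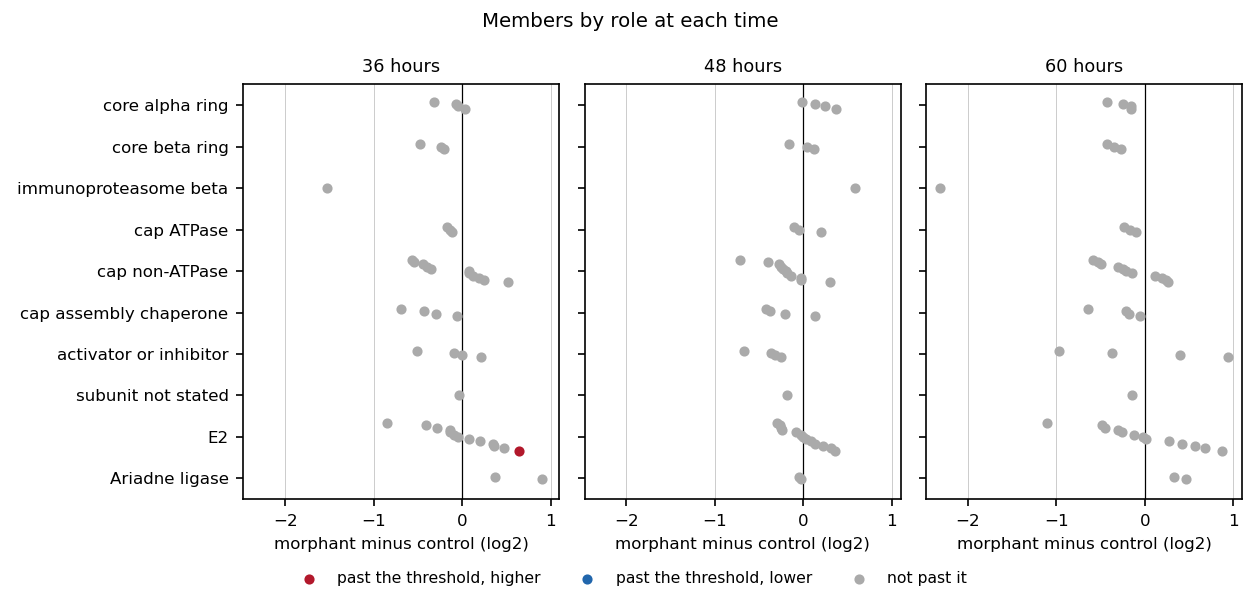
Difference of morphants minus controls (log2) at 36, 48 and 60 hours, 1 point per member tested and 1 row per role. In the main fit shown here only ube2d3, at 36 hours, is past the threshold. With the replicate number as a block it is not, and PSMD2-like at 48 hours is. At 60 hours the 4 alpha-ring, 3 core beta-ring, 3 ATPase and 4 assembly chaperone points all lie left of 0, while cap non-ATPase points (4 of 11 above 0), activators or inhibitors (2 of 4 above 0) and E2 points lie on both sides. The psmb12 points at 36 and 60 hours compare with a morphant mean under the filter level.

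The largest uncalled differences at 36 hours were those of the fourth Ariadne-1-like probe set (0.90, SE 0.38), the second psmd13 probe set (0.52, SE 0.27) and the first CDC34-like probe set (-0.84, SE 0.55). The gap of psmb12 was wider, but its morphant mean of 0.13 lay under the filter level, so its values are given below as a description. Ariadne-1 is a ubiquitin ligase, psmd13 a lid subunit, and CDC34 the E2 of cullin-based ligases. The first CDC34-like probe set was dim, with 0.54 in morphant replicate 1 of 36 hours, under the filter level. The standard error that the authors deposited per value had a median of 0.93 for it, against 0.167 for tested members. Control replicate 1 had 1.87 for Ariadne-1-like, beside 4.11 and 3.78 in the other controls, and without that array the difference was 0.20. For psmd13 it had 3.27, beside 4.62 and 4.71, and without it the difference was 0.05. The first PSMD9-like probe set followed at -0.69 (SE 0.19, limma adjusted p = 0.189).

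At 48 hours the largest positive differences were psmb12 (0.58, SE 0.72), PSMA1-like (0.37, SE 0.23) and ube2d3, and the largest negative ones PSMD2-like, psme2 (-0.67, SE 0.50) and PSMD10-like (-0.42, SE 0.21). With values as deposited psmb12 (-0.31) and PSMA1-like (-0.08) had the opposite sign at 48 hours.

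At 60 hours the largest positive differences were those of psme2 (0.94, SE 0.50) and of 2 E2 probe sets. For psme2 control replicate 2 had -0.39, beside 1.22 and 1.88 in the other controls, and without that array the difference was 0.29. UBE2M passes NEDD8 to cullin ligases, and UBE2M-like had 6.20, 6.21 and 6.10 in morphants, against 5.06, 4.83 and 6.01 in controls. UBE2N builds chains used in signalling and DNA repair, and ube2na had 6.27, 6.73 and 6.75 in morphants, against 5.56, 5.75 and 6.40 in controls. In both, the third control lay well above the other controls and close to or among the morphants. Neither passed: UBE2M-like differed by 0.87 (SE 0.25, limma adjusted p = 0.110) and ube2na by 0.68 (SE 0.26, limma adjusted p = 0.201). UBE2V1-like, for the partner of UBE2N in that reaction, differed by -0.49 (limma adjusted p = 0.278). The largest negative differences of E2 and regulator probe sets were CDC34-like, first probe set (-1.11, SE 0.55), and PI31-like, second probe set (-0.97, SE 0.48). The CDC34-like one had 0.64 in morphant replicate 2, near the filter level of 0.62. PI31 binds the core and can inhibit it.

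The SUMO-conjugating enzymes ube2ia and ube2ib differed by -0.12 and -0.24 on average, ube2e3 by -0.21 and ube2d2, of the same family as ube2d3, by -0.22 (SE 0.21, limma adjusted p = 0.505). The 2 probe sets like HBUCE1, another member of that family in human, differed by 0.18 and 0.17. None passed. A rise was therefore called for 1 of 4 probe sets of the UBE2D family, and whether ube2d3 differs from the others was not tested.

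The immunoproteasome, in which inducible beta subunits replace the constitutive ones, was near the limit of measurement. Of its 5 beta probe sets psmb8a, psmb9a, psmb9b and psmb13a were under the filter, as was the activator subunit psme1, and only psmb12 was tested. The mean of psmb12 passed the filter through the controls, and its morphant means at 36 and 60 hours, 0.13 and -0.40, lay under the filter level. In the RefSeq gene order (assembly GRCz12tu) psmb13a, psmb8a, psmb12 and psmb9a are consecutive protein-coding genes on chromosome 19. At 36 hours psmb12 had 1.07, -1.15 and 0.46 in morphants, against 2.74, 1.76 and 0.47 in controls, and at 48 hours 0.90, 1.97 and 1.55 in morphants, against 1.03, 1.72 and -0.09 in controls. At 60 hours it had -0.36, -0.30 and -0.53 in morphants, against 1.80, 2.91 and 1.03 in controls, with no overlap. It was not called at any single time in the main fit. With array quality weights psmb12 passed at 60 hours, which is not read as support, since its mean passed the filter through the controls. No size of the limma difference is given at 36 and 60 hours.

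The neighbouring genes were not in the main fit, and their values are given as a description. At 36 hours psmb8a averaged 0.09 ± 1.33 in morphants and -0.88 ± 0.11 in controls (SD, n = 3 each). At 48 hours psmb8a had -1.63, -2.44 and -1.57 in morphants, against 0.55, 0.28 and 0.76 in controls, and at 60 hours -3.09, -0.96 and -1.47 in morphants, against -2.52, 0.67 and -0.49 in controls. These groups were apart at 48 hours, with morphants lower, and overlapped at 36 hours, with the morphant mean higher, and at 60 hours. For psmb9a the values at 36 hours were -2.11, -1.09 and -2.15 in morphants, against 1.06, 0.69 and -1.16 in controls. At 48 hours psmb9a had -1.08, -0.47 and -2.09 in morphants, against 0.71, -0.26 and 0.63 in controls. At 60 hours psmb9a had -1.28, -0.10 and -0.24 in morphants, against -0.59, -0.93 and -0.58 in controls, so its groups were apart at 48 hours, with morphants lower, and overlapped at 36 and 60 hours. The other neighbour, psmb13a, went the other way at 48 hours, with means of -1.46 in morphants and -2.65 in controls. At 36 hours psmb13a averaged -3.10 in morphants and -2.29 in controls, and its groups overlapped at both times. For psmb9b, also untested, the 48-hour means were -1.25 in morphants and -1.17 in controls, with overlap. For untested members the median standard error that the authors deposited per value was 1.58 on the log2 scale, against 0.167 for tested members.

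**Figure D4:**
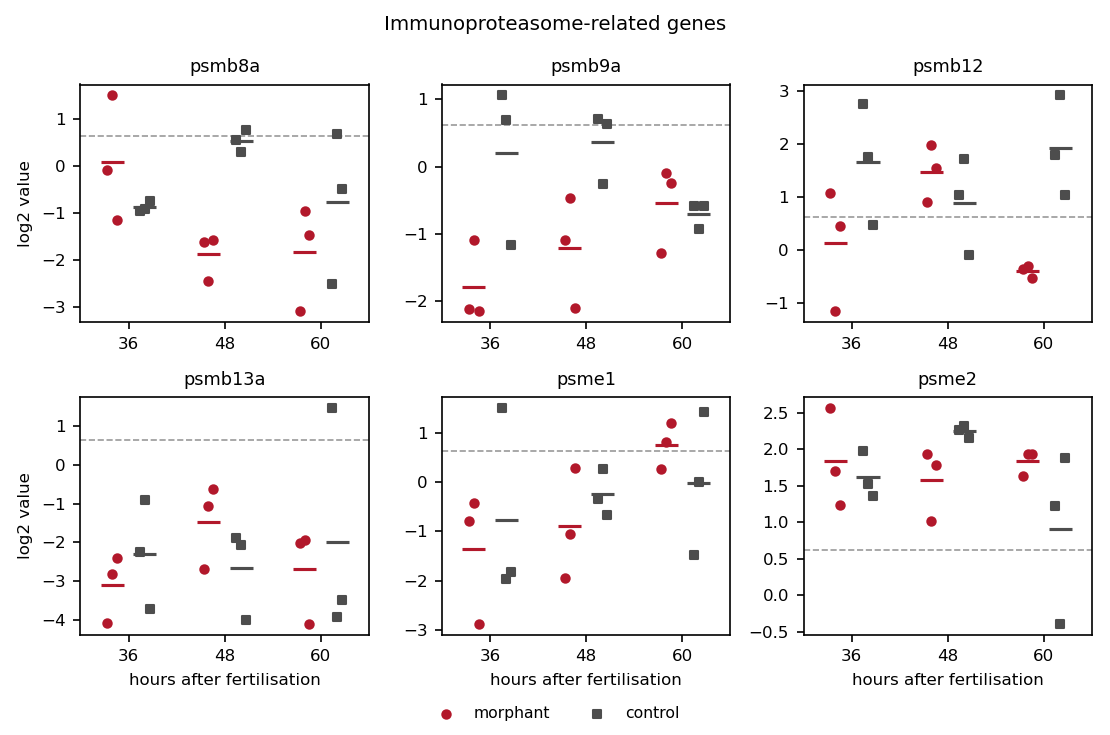
Log2 values of 4 immunoproteasome beta genes (psmb8a, psmb9a, psmb12, psmb13a) and 2 activator genes (psme1, psme2) by hours after fertilisation. Points are arrays, short lines group means, and the dashed line is the filter level of 0.62, under whose mean a probe set was not tested. Most points lie near or under that line, except for psme2, for psmb12 in most controls and for psmb12 in morphants at 48 hours.

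The proteasome activators psme2 and psme3 differed by 0.16 (SE 0.29) and 0.03 (SE 0.13) on average. For psme2, which caps the core with psme1 after interferon, the sign changed between times (0.22, -0.67 and 0.94, none passing). The other members under the filter were psma6l, PSMB7-like, the second CDC34-like probe set and the first 2 Ariadne-1-like probe sets. The lowest means were -2.60 for the second CDC34-like probe set, -2.36 for psmb13a and -1.51 for the first Ariadne-1-like probe set. The highest were psmb7 at 7.67, PSMC3-like at 7.18 and PSMA1-like at 7.08. Levels of different probe sets are not comparable as amounts of RNA.

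Probe sets of the same gene, or described by the same human protein, did not always agree. Over the 18 arrays the 2 psmd13 probe sets had a Pearson r of -0.22 (Spearman rho -0.15), and psmd11b and PSMD11-like of -0.42 (rho -0.11). The pairs for PSMD9 (r = 0.61, rho = 0.50), PSMC1 (0.59 and 0.58), PI31 (0.33 and 0.25) and PSMD12 (0.28 and 0.09) were between those and the psmd1 pair. These are descriptions over arrays of 6 groups.

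Change with age was compared between 60 and 36 hours. In controls 7 members passed, 3 higher and 4 lower, where 18% of all probe sets did (9.57% higher and 8.4% lower), so the members' share of 15.2% was not above the background. The count was 11 without control replicate 1 of 36 hours, and 2 and 4 without control replicate 1 and 2 of 60 hours. On values as deposited the split was 0 higher and 16 lower, where the median of all probe sets was itself at -0.83. With median centring it was 1 higher and 3 lower. No share of all probe sets is given for these alternatives, so their counts are not read as results about members. UBE2T-like, for an E2 of DNA crosslink repair, had 3.09, 3.50 and 3.34 at 60 hours, against 4.42, 4.15 and 4.44 at 36 hours in controls. It fell by 1.02 (SE 0.26, limma adjusted p = 0.0116), and without control replicate 1 of 60 hours the limma adjusted p was 0.0537. The 60-hour and 36-hour arrays did not overlap. Its control mean was lower at 48 hours (2.81) than at 60 hours (3.31), so the fall was not steady.

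The second psmd13 probe set had 5.26, 5.15 and 5.45 at 60 hours, against 3.27, 4.62 and 4.71 at 36 hours in controls. It rose by 1.09 (SE 0.27, limma adjusted p = 0.00914), and by 0.67 without the 2 arrays of lowest deposited median (limma adjusted p = 0.0123). The first psmd13 probe set differed by 0.01 (limma adjusted p = 0.966), so the probe sets of this gene gave different values.

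In controls ube2d3 was also higher at 60 than at 36 hours, by 0.41 (SE 0.11, limma adjusted p = 0.0134), but was at -0.43 on values as deposited, where all probe sets had a median of -0.83. That call was lost without the 2 arrays of lowest deposited median (0.30, limma adjusted p = 0.0733), and without control replicate 1 (limma adjusted p = 0.0503) or 2 (0.0543) of 60 hours. In morphants the difference of ube2d3 between these times was 0.19 (limma adjusted p = 0.322), and whether morphants and controls differ in it was not tested. UBE2H-like rose by 0.48 (SE 0.15, limma adjusted p = 0.0334), with -0.34 on values as deposited. It was lost without control replicate 1 or 2 of 36 hours or 1 or 3 of 60 hours (limma adjusted p of 0.0502 to 0.112). The largest uncalled differences in controls were those of ube2d2 (0.64), the second PI31-like probe set (0.50) and psme2 (-0.71). On values as deposited ube2d2 was at -0.22 and PI31-like at -0.36, and without the 2 arrays of lowest deposited median psme2 was at 0.11. Without control replicate 1 of 36 hours, PI31-like was at 1.17 and passed (limma adjusted p = 0.0373).

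The other calls were 3 decreases. The first PSMD9-like probe set fell by 0.69 (SE 0.19, limma adjusted p = 0.0179), with adjusted p of 0.0507 without control replicate 1 of 36 hours and 0.0916 without replicate 1 of 60 hours. The second PSMD9-like probe set fell by 0.62 (SE 0.21, limma adjusted p = 0.0439), a call that held without replicate 1 of 60 hours and was lost without any other single array (adjusted p of up to 0.145). UBE2M-like fell by 0.84 (SE 0.25, limma adjusted p = 0.0278), with 5.06, 4.83 and 6.01 at 60 hours, against 6.60, 5.54 and 6.26 at 36 hours, so the times overlapped. Without replicates 1 or 3 of 36 hours, or 1 or 2 of 60 hours, it did not pass (adjusted p of up to 0.149), and without the 2 arrays of lowest deposited median it was -0.36 (limma adjusted p = 0.314).

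In morphants 1 member passed between 60 and 36 hours, where 11.8% of all probe sets did (6.86% higher and 4.98% lower). Members lay wholly higher at 60 hours in 1 case (2.17%) and wholly lower in 7 (15.2%), where 17.3% and 17.1% of all probe sets did. The alpha-ring subunit psma6a had 6.13, 6.00 and 6.03 at 60 hours, against 6.35, 6.64 and 6.80 at 36 hours, with no overlap. It fell by 0.55 (SE 0.14, 1.46-fold, limma adjusted p = 0.0183). Without morphant replicate 2 or 3 of 36 hours, or 2 or 3 of 60 hours, it did not pass (adjusted p of 0.0638 to 0.0906). Its change in controls was -0.26. Member medians were -0.13 in morphants and -0.09 in controls, beside -0.02 for all probe sets in each.

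**Figure D5:**
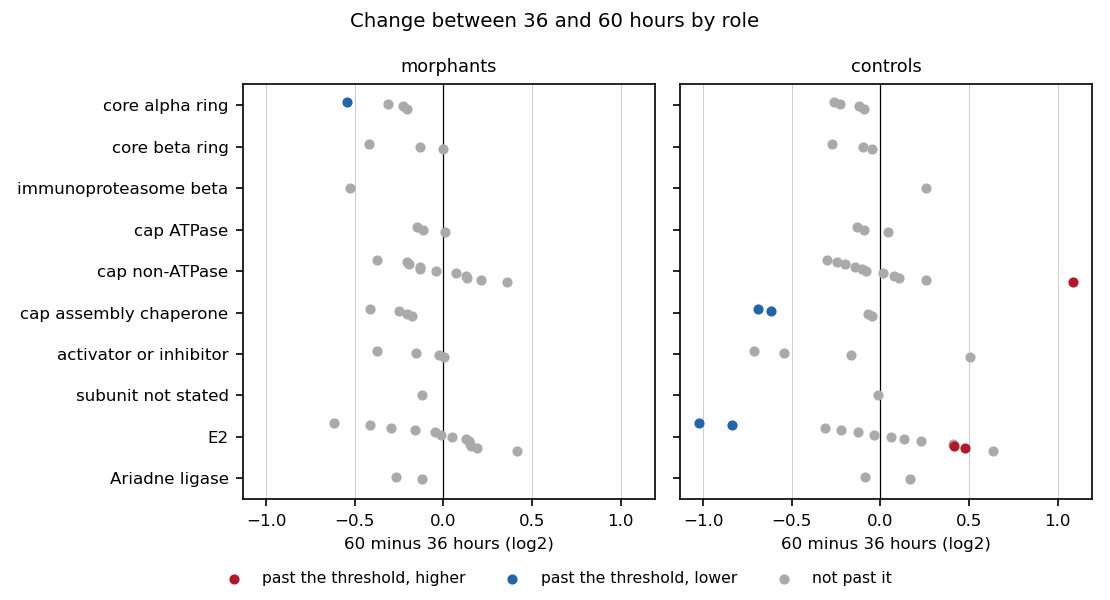
Change between 60 and 36 hours (60 minus 36, log2) in morphants (left) and controls (right), 1 point per member tested and 1 row per role. Colour marks the 1 member past the threshold in morphants (psma6a) and the 7 in controls. The 4 alpha-ring points lie left of 0 in both.

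The rest of the pathway was read from lists of E1 enzymes and ubiquitin-like genes, ligases, deubiquitinases, and shuttle or transcription factors. Of 125 listed genes 24 were named on the array. The E1 and ubiquitin-like list and the shuttle or transcription factor list gave 2 probe sets each, deubiquitinases 5 and ligases 16. None stood for an E1 of ubiquitin itself or for a proteasome transcription factor, so the counts do not cover those. In all 25 probe sets were tested. Of these limma called 0 at 36, 48 or 60 hours (4, 1 and 4 had an unadjusted p under 0.05), 1 on average (lower), 5 in control development (2 higher and 3 lower) and 1 in morphant development (lower). As shares of 25 these were 4%, 20% and 4%, where 4.81%, 18% and 11.8% of all probe sets passed, so the first 2 lay near the background. An unadjusted p under 0.05 was found for 13.2%, 10.3% and 17.8% of all probe sets at the 3 times. Median differences of the 25 were -0.10, 0.02 and -0.21 at 36, 48 and 60 hours, beside -0.09, -0.06 and -0.17 for members. A difference between these medians was not tested. The 1 called on average was usp14, a deubiquitinase that docks on the cap. It had 4.64, 4.53 and 4.49 in morphants at 36 hours, against 5.36, 4.87 and 4.95 in controls. The 48-hour values were 4.38, 4.35 and 4.12 in morphants, against 4.36, 4.45 and 4.39 in controls, and overlapped. The highest 60-hour morphant value was 4.72, and all 3 controls lay above it. It fell by 0.33 (SE 0.086, limma adjusted p = 0.0326), and the call was lost without 12 of the 18 arrays, each left out in turn (adjusted p of up to 0.0719).

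The authors' deposited tables of log2 ratios of morphants over controls listed 47, 56 and 56 members at 36, 48 and 60 hours. In the authors' deposited table of 48 hours 54 members were below 0 (96.4%), beside 87.0% of all its probe sets. In their deposited table of 36 hours 68.1% of members were below 0, beside 59.3% of all, and in that of 60 hours 41.1%, beside 25.9%. For ube2d3 the authors' deposited tables give ratios of 0.07, -0.01 and 0.37 in order of time, and for PSMD2-like -0.42, -0.86 and -0.00. Such ratios come from another estimate and not from the quantile-normalised values, so they are not measures of the same size. Their sign was that of the limma difference for 44, 31 and 33 of the 46 members tested at 36, 48 and 60 hours. The authors' deposited table of 60 hours gives -1.37 for psmb12 and -2.37 for psmb13a, and that of 48 hours -2.36 for psmb8a. Each had a group mean under the filter level at that time, so these ratios are not read as sizes of change. For psmb13a the 60-hour values were -2.01, -1.93 and -4.09 in morphants, against 1.46, -3.92 and -3.49 in controls, and overlapped. Ratios past 1 in size were 0, 2 and 2 among members in those deposited tables.

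The 5 probe sets whose 18 values were most like those of ube2d3 had Pearson r of 0.83 to 0.90, as a description over arrays that share groups and scaling. None has a gene name here, and the description of the closest gives similarity to a human RNA-binding protein, heterogeneous nuclear ribonucleoprotein D-like.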

How the data were processed

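Expression was measured on 18 arrays. The deposited log2 values were estimated per array with the mmgMOS model of the puma package, per the deposited readme, with no version given in the sources used here, and the base of the logarithm was taken as 2. The authors also deposited a standard error for each log2 value, used here only as a description. The authors combined arrays per group and gave log2 ratios with a score for each, the probability of a positive ratio, per the deposited readme. Control probe sets (115) were removed. Array medians spanned 2.68, so arrays were quantile normalised, and probe sets with means under the 25th percentile (0.62) were left out. Group means were fitted in limma 3.58.1 (R 4.3.3) and the variances moderated along mean intensity (residual degrees of freedom 12, prior 6.24), and the fit was tested on simulated data. P-values were adjusted over 11626 probe sets. Arrays give no depth, so their number limits the precision, and the median SE of a difference at 1 time was 0.28. No columns of other samples were present.

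Members and lists were chosen with earlier results of these data known. The text names ube2d3, members past the threshold, the 3 largest differences each way at each time and in control development, the 3 highest and lowest means, members sharing a gene, listed pathway genes called in morphants against controls, and the 5 probe sets most like ube2d3. Further members that complete a role were named after their values were seen. Names came from accessions, clones and Entrez numbers matched to a RefSeq table of assembly GRCz12tu, used for names and gene order only.

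Replicate numbers are shared by the groups in the titles. Deviations of same-numbered morphant and control arrays correlated at 0.10 to 0.27 at 36 hours, 0.18 to 0.20 at 48 hours and -0.06 to 0.27 at 60 hours. The numbers were therefore taken to pair arrays at 36 and 48 hours only. The main fit left this pairing out, so its calls at those times and on average are to be read beside those with the replicate number as a block. With that block ube2d3 was not called at 36 hours and PSMD2-like was called at 48 hours (limma adjusted p = 0.0441). Alternatives covered scaling, the filter, the intensity trend, array weights, this pairing, fits within 1 time and each array left out in turn.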

Additional observations from a re-analysis of the deposited data

How the results depend on the processing

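Counts of members called in morphants against controls moved with the processing. At 36 hours the count was 0 in place of 1 on values as deposited, with median centring and with the replicate block. It was also 0 with no intensity trend (0.0774% of all probe sets) and with the 6 arrays of that time alone. With single arrays left out the count was 0 to 3. At 48 hours it was 2 with array quality weights (6.33% of all probe sets), 1 with the replicate block and 1 with the 6 arrays of that time, in place of 0 (0 with each array left out). At 60 hours it was 28 with array quality weights, where 41.8% of all probe sets passed, and 1 without the 2 arrays of lowest deposited median, in place of 0 (0 to 2 with arrays left out). On average it was 12 with array weights (26.1%, where 23.6% of all probe sets passed), in place of 6. With no intensity trend it was 4 (8.7%, where 3.41% of all probe sets passed). The averaged count was 0 on values as deposited and with median centring, and 2 to 10 with arrays left out. On values as deposited 244 of all probe sets had an unadjusted p under 0.05 at 36 hours and 801 on average. The difference between times gave 13 with array weights, where 17.9% of all probe sets passed, and 0 otherwise. The 28 at 60 hours and these 13 include psmb12, whose mean passed the filter through the controls. In control development the count was 16 as deposited, 4 with median centring and 13 with array weights (30.3% of all), in place of 7 (2 to 11), and in morphant development 0, 0 and 7 (30.9% of all), in place of 1 (0 to 1). The differences of ube2d3 (-0.43) and UBE2H-like (-0.34) in control development changed sign on values as deposited. Counts given here without the share of all probe sets beside them are not read as results about members. Causes were not tested.

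On average, which includes the times taken as paired, the replicate block gave 5 members, losing the first PSMD9-like probe set (limma adjusted p = 0.0501). Where the numbers were not taken to pair arrays, the block gave 0 members at 60 hours, and 7 and 1 in control and morphant development. In 8 of 9 cases a morphant array correlated best with the control of its own number. Beside the calls named, ube2d3 and PSMD2-like on average kept their call in 24 of 26 alternatives each, of which 18 left out a single array. Both were lost in the 2 alternatives that changed the scaling, values as deposited and median centring. The alternative without the 2 arrays of lowest deposited median was chosen after seeing the data. The 10 members under the filter entered the fit with no filter, where none of them was called. At this signal level that does not clear them.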
